A study of Mus musculus with 36 samples.

Results

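The complement genes described here are the 7 genes C1qa, C1qb, C1qc, C1s1, C4b, C3 and Serping1 of the 22447 genes in a normalized count table of mouse hypothalamus. They were chosen by name after their values in the 4 groups of animals had been seen, so their levels and differences between those groups are a description and carry no test. RNA was sequenced from 19 hypothalami. The wild type group (n = 5) carried 2 intact copies of Sim1, a transcription factor gene of the paraventricular hypothalamus, and no sgRNA. The Sim1 heterozygous group (Sim1 +/-, n = 4) had lost 1 copy and carried no sgRNA. The promoter sgRNA group (n = 6) and the enhancer sgRNA group (n = 4) were also Sim1 +/- and carried CRISPR activation, a nuclease-dead Cas9 fused to an activator, guided to the Sim1 promoter or to a Sim1 enhancer. Animals were 3 to 9 months old in the wild type and promoter sgRNA groups, 4 to 9 in the Sim1 heterozygous group and 3 to 7 in the enhancer sgRNA group, with 1, 2, 1 and 2 males respectively. The background was B6/FVB except for 1 wild type (F_2) and 1 Sim1 heterozygous female (F_3) on B6. The labels name neither the promoter that drives the activator, nor the cells that make it, nor the number of founder lines. Sim1 heterozygous F_4, promoter sgRNA F_5 and M_3, and wild type F_2 stood apart from the other libraries in an earlier analysis, and the member differences and list counts are also given without these 4.

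Complement is a cascade of secreted proteins. C1q, built from the C1qa, C1qb and C1qc chains, binds antibody or altered surfaces and activates the proteases C1r and C1s. These cleave C4 and C2, and the resulting enzyme cleaves C3, whose fragments coat the target and call in phagocytes. In the brain, C1q is made mostly by microglia, C4 and C3 largely by glia, and complement tags synapses for removal by microglia. Serping1 encodes the C1 inhibitor, which blocks C1r and C1s.

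All 7 genes were highest on average in the Sim1 heterozygous group. C4b was 2.59-fold higher there than in wild type, Serping1 1.87-fold, C3 1.78-fold, C1s1 1.58-fold, and the 3 C1q genes between 1.41-fold and 1.46-fold. With either sgRNA the fitted levels of C4b, C3, Serping1 and the C1q genes differed from wild type by -0.35 to 0.18 on the log2 scale. C1s1 was lowest in the promoter sgRNA group, at 16.9 ± 6.67 normalized counts (SD, n = 6) against 27.4 ± 6.40 in wild type (n = 5).

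The 3 C1q genes lie side by side on the minus strand of chromosome 4 (GRCm38), within 18675 bases: C1qb at chr4:136880129-136886187, C1qc at chr4:136889804-136893065 and C1qa at chr4:136895917-136898803. Gaps of 3616 and 2851 bases separate them. C1s1 is at chr6:124530345-124542359, C4b at chr17:34728380-34743882, C3 at chr17:57203970-57228136 and Serping1 at chr2:84765387-84775444, each also on the minus strand. No other gene of the table overlaps any of them.

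The promoters of C1qb and C1qc are shown because these neighbours had the most similar profiles of the 7, and that of C3 for comparison with a gene outside the cluster. RefSeq (GRCm38.p6) gave a promoter of 250 bases before to 50 after the start for 4 of the 7 genes. In C1qb (chr4:136886151-136886450, minus strand) and C1qc (chr4:136892865-136893164, minus strand), capitals mark the PU.1 core GAGGAA on either strand, and PU.1 is the factor that directs myeloid gene expression. In C3 (chr17:57228087-57228386, minus strand), capitals mark the NF-kB core, GGGA and CC separated by any 4 bases, on either strand.
C1qb: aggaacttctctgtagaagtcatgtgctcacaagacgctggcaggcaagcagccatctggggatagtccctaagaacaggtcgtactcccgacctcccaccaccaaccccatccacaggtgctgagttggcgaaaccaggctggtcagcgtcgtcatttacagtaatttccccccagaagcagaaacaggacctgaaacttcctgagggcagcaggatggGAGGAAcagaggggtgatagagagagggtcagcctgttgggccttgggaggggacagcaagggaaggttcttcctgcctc
C1qc: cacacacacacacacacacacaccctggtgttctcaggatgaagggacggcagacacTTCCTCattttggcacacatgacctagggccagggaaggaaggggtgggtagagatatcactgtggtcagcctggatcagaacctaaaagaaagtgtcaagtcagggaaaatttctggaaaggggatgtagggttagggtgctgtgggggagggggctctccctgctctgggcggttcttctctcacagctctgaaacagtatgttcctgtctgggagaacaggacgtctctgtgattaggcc
C3: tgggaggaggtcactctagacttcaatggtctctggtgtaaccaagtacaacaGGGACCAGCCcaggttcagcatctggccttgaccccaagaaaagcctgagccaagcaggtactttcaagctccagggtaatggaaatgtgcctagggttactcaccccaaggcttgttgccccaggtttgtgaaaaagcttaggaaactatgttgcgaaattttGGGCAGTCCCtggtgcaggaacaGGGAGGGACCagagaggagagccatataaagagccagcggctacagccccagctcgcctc
The C1qb match starts 30 bases before the start site on the printed strand, and that of C1qc 193 bases before it on the other strand. GAGGAA was found on either strand in 28.3% of 32851 RefSeq promoters of this length. The NF-kB core, present in 20.7% of them, was found in all 4 promoters, those of C1qb and C1s1 included, and in C3 at 3 places that start 197, 33 and 10 bases before the start site. The letters TTCNNNGAA (STAT, 8.3% of promoters) and the interferon response element, GAAA and GAAA separated by any 2 bases (3.44%), were not in these windows. No PU.1 match overlapped an NF-kB match, and the pair of NF-kB matches in C1qb overlapped each other.

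The recognition subunit was measured first. C1qa stood at 1555, 1710, 2088 and 2708 normalized counts in the 4 Sim1 heterozygous libraries and between 1151 and 1620 in the 5 wild type libraries. It ranged from 1290 to 1791 with the promoter sgRNA and from 1232 to 1460 with the enhancer sgRNA. The Sim1 heterozygous libraries lay above all enhancer sgRNA libraries and overlapped both other groups. C1qb stood at 939, 1117, 1388 and 1515 in the Sim1 heterozygous group, at 664 to 1304 in wild type, at 755 to 1012 with the promoter sgRNA and at 793 to 942 with the enhancer sgRNA. C1qc stood at 795, 881, 1082 and 1097 in the Sim1 heterozygous group, at 551 to 947 in wild type, at 582 to 780 with the promoter sgRNA and at 589 to 856 with the enhancer sgRNA. For all 3 C1q genes the highest wild type library was F_4, the youngest wild type animal at 3 months, and it lay among the Sim1 heterozygous values. Of the 3 C1q genes only C1qc, at 795 and above against 780 and below, separated the Sim1 heterozygous from the promoter sgRNA group.

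C1s1, the protease subunit that cleaves C4 and C2, had the fewest reads of the 7, 6 to 82 per library, and so the least precise values. It stood at 36.0, 39.4, 39.6 and 63.2 in the Sim1 heterozygous group, and no library of any other group reached these values. Wild type libraries held 17.3 to 34.5, promoter sgRNA libraries 7.1 to 22.4 and enhancer sgRNA libraries 18.9 to 31.4. The paralog C1s2 averaged 5.37 over all libraries, and how reads were divided between the pair is uncertain. C1s2 was 0.68 ± 0.50 (log2, SE) higher in the Sim1 heterozygous than in the wild type group and was not called (limma, adjusted p = 0.868).

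C4b, the C4 gene whose product is cleaved by C1s, had the largest spread. It stood at 1244, 3003, 3278 and 4099 in the Sim1 heterozygous group, against 666, 711, 1206, 1365 and 1395 in wild type. It ranged from 778 to 1885 with the promoter sgRNA and from 522 to 1274 with the enhancer sgRNA. The Sim1 heterozygous library F_4, at 1244, lay inside all 3 other groups, while the remaining 3 exceeded every other library. C4b has a near-identical copy, C4a, which took 5.48% of the summed counts of the pair on average and 1.27% to 9.99% in single libraries, so the division of reads between them is uncertain. C4a itself was 0.68 ± 0.51 (log2, SE) higher in the Sim1 heterozygous than in the wild type group and was not called (limma, adjusted p = 0.868).

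C3, the central component of the cascade, stood at 257, 298, 425 and 487 in the Sim1 heterozygous group. All 4 exceeded every library of the other groups, which held 176 to 233 in wild type, 167 to 236 with the promoter sgRNA and 113 to 237 with the enhancer sgRNA. Serping1, the inhibitor, stood at 365, 450, 467 and 669 in the Sim1 heterozygous group. Its wild type libraries ran from 168 to 432, its promoter sgRNA libraries from 216 to 381 and its enhancer sgRNA libraries from 222 to 304. The enhancer sgRNA group lay wholly below the Sim1 heterozygous group, and the other groups overlapped it through 1 library each. In bulk tissue, fewer cells of a type and less RNA per cell cannot be told apart.

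**Figure D1:**
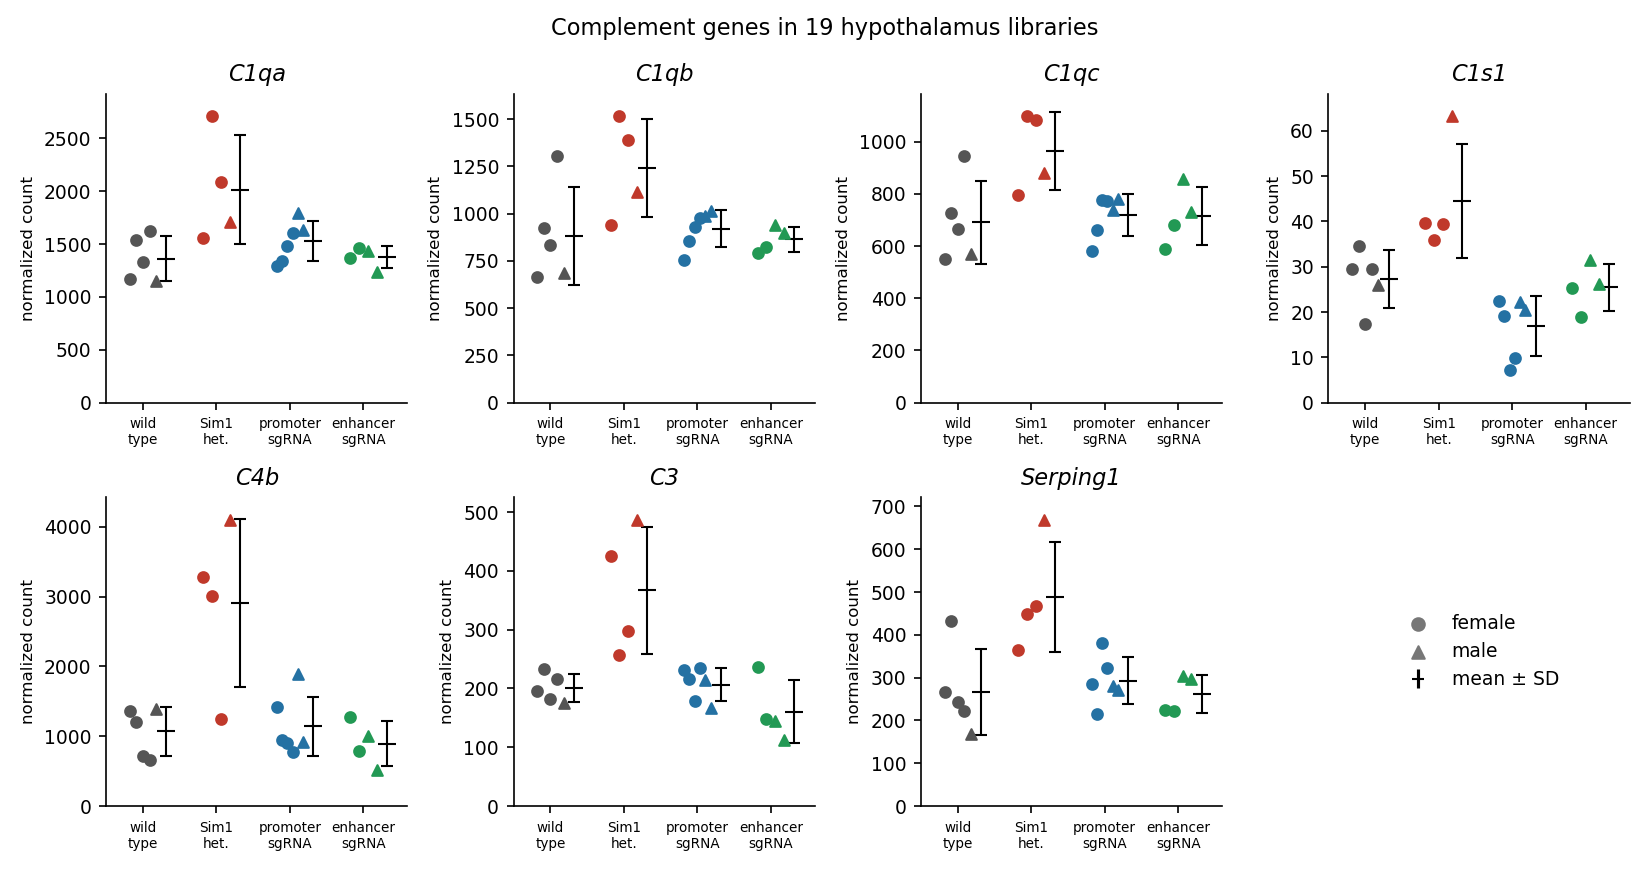
Normalized counts (vertical axes, from 0) of each complement gene in the 19 libraries by group, circles for females and triangles for males, with the mean ± SD beside each group. The Sim1 heterozygous mean is the highest in every panel, and in the C1s1 and C3 panels the 4 Sim1 heterozygous points (36.0 to 63.2 and 257 to 487) lie above all other points.

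Fitted differences were taken from 1 limma model over all 4 groups with sex as covariate, on log2(normalized count + 1). Sim1 heterozygous minus wild type was 1.37 ± 0.33 (log2, SE) for C4b, 0.90 ± 0.23 for Serping1, 0.83 ± 0.21 for C3 and 0.66 ± 0.31 for C1s1. It was 0.55 ± 0.15 for C1qa, 0.51 ± 0.17 for C1qb and 0.49 ± 0.16 for C1qc. The median over the 7 was 0.66 and that over all 20505 genes tested -0.01. All 7 were higher, as were 48.8% of all genes, and all 7 had an unadjusted p under 0.05 on the higher side, as did 2.02%, and C1s1 and C3 lay wholly above wild type, as did 0.522% of all genes. After adjustment over all genes limma and edgeR called 0 of the 7 and 0 genes in all, and DESeq2 called C4b among 7 genes. With the authors' stabilized values limma also placed C4b past the threshold, at 1.09 ± 0.14. Without Sim1 heterozygous F_4 the C4b difference was 1.72 ± 0.31. These counts include the contrast by which the genes were chosen and are given as a description.

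With the promoter sgRNA the differences from the Sim1 heterozygous group were -1.46 ± 0.30 for C1s1, -1.32 ± 0.32 for C4b, -0.78 ± 0.20 for C3 and -0.72 ± 0.22 for Serping1. The C1q genes differed by -0.37 to -0.42. C1qc, C1s1 and C3 lay wholly below the Sim1 heterozygous group, as did 0.278% of all genes. With the enhancer sgRNA the differences were -1.72 ± 0.36 for C4b, -1.16 ± 0.22 for C3, -0.89 ± 0.25 for Serping1 and -0.88 ± 0.34 for C1s1, and -0.44 to -0.51 for the C1q genes. C1qa, C1s1, C3 and Serping1 lay wholly below, as did 2.18% of all genes. All 7 were lower in both comparisons, as were 49.9% and 49.7% of all genes, and all 7 had an unadjusted p under 0.05 on the lower side, as did 2.68% and 3.77%. limma and edgeR called 0 genes in both after adjustment. DESeq2 called C1s1 among 3 genes with the promoter sgRNA and C3 and C4b among 13 genes with the enhancer sgRNA. Without enhancer sgRNA F_1 the C3 difference was -1.38 ± 0.22, which limma placed past the threshold, and this is a description like the rest. Without the 4 libraries that stood apart C4b differed by -1.45 ± 0.32 with the promoter sgRNA and -2.06 ± 0.32 with the enhancer sgRNA, C3 by -0.85 ± 0.25 and -1.26 ± 0.25, and all 7 were still lower in both. Without both B6 animals C1qa with the promoter sgRNA differed by -0.22 ± 0.13 in place of -0.37 ± 0.14. All 3 comparisons share the same 4 Sim1 heterozygous libraries, so a high value there enters each of them.

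Against wild type, the 7 genes differed by -0.80 to 0.18 with the promoter sgRNA and by -0.35 to 0.05 with the enhancer sgRNA. The C1s1 value with the promoter sgRNA, -0.80 ± 0.29, stood apart from the other 6, which lay between 0.05 and 0.18. Between the sgRNA groups (enhancer minus promoter) C1s1 differed by 0.58 ± 0.31, C4b by -0.40 ± 0.32 and C3 by -0.38 ± 0.20, and the other 4 by -0.17 to -0.02. Leaving out 1 library at a time moved the C4b value between -0.69 and -0.12 and the C3 value between -0.60 and -0.25. limma called 0% of all genes in these 3 comparisons.

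**Figure D2:**
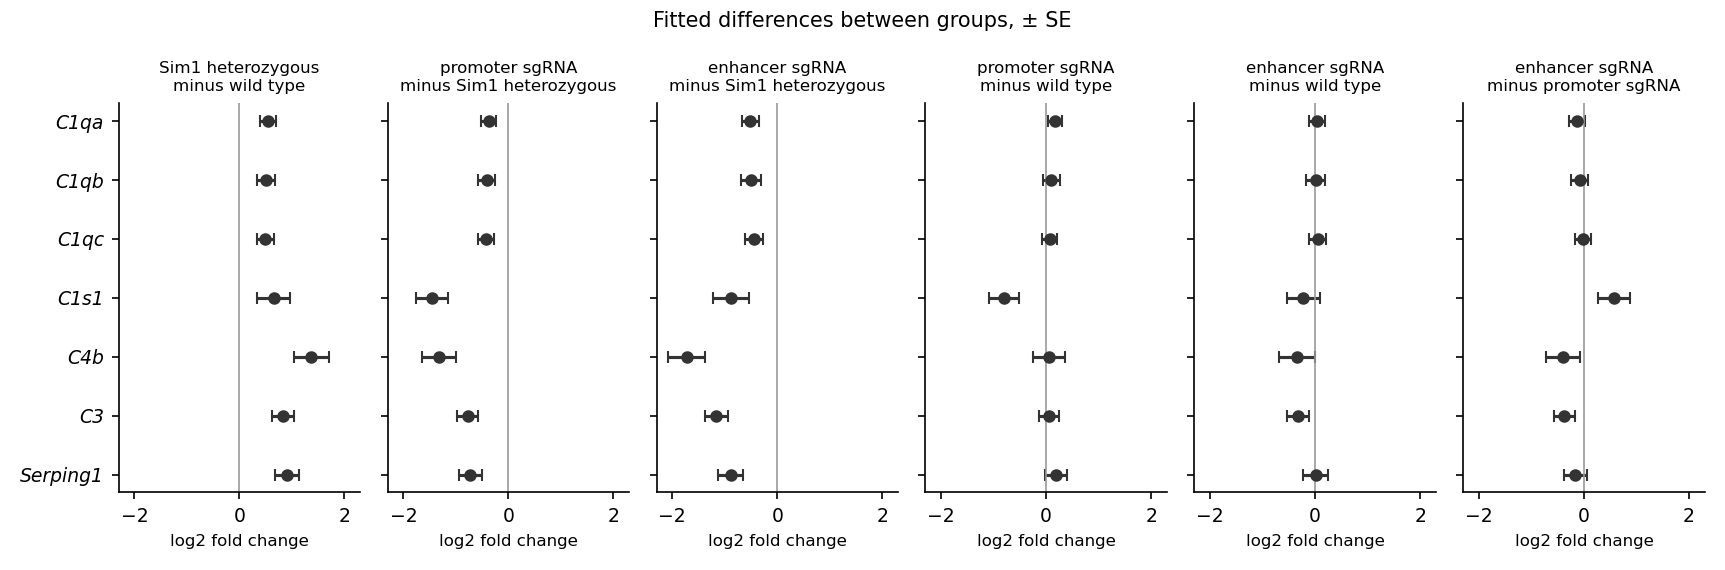
Fitted log2 fold change (horizontal axes) ± SE of each complement gene in the 6 comparisons between groups. The 7 points lie to the right of 0 for Sim1 heterozygous minus wild type (0.49 to 1.37), to the left for either sgRNA group minus Sim1 heterozygous (-0.37 to -1.72), and around 0 elsewhere apart from C1s1 (-0.80 for promoter sgRNA minus wild type).

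The authors' deposited table gave C4b the lowest false discovery rate of the 7 in each of its comparisons: 1.27e-10 for Sim1 heterozygous against wild type, 5.54e-06 in its promoter comparison and 0.000361 in its enhancer comparison. C3 followed in the authors' deposited table with 0.0547, 0.0490 and 0.0285. The other 5 genes did not pass 0.05 in any comparison of the authors' deposited table, which held 19, 9 and 7 genes past that rate. These rates come from the same data and groups by which the genes were chosen and are given as a description.

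The members varied in different ways. The profile of a gene was its log2 value in each of the 19 libraries about its own mean, and likeness was the root-mean-square difference between profiles. Of the 7, the 3 C1q genes were the most alike: C1qb and C1qc differed by 0.08, C1qa and C1qb by 0.13 and C1qa and C1qc by 0.15. C1qc minus C1qb had an SD of 0.08 over the libraries, while each C1q gene alone had an SD of 0.29 to 0.32. C1s1 was at least 0.59 from every other member and C4b at least 0.49, and C3 and Serping1 were 0.43 apart. C4b and C1qb were 0.77 apart, although both were highest in the Sim1 heterozygous group: inside that group C4b was lowest in F_4 and highest in M_1, while C1qb was lowest in F_1 and highest in F_3.

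**Figure D3:**
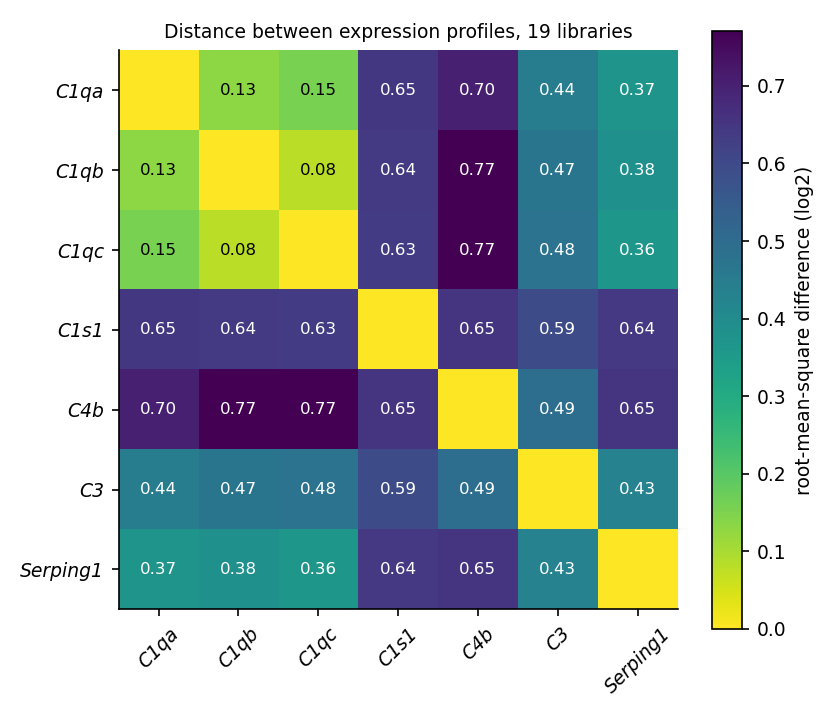
Root-mean-square difference (log2, colour and printed value) between the expression profiles of each pair of complement genes over 19 libraries. The C1qa, C1qb and C1qc block is the closest (0.08 to 0.15), and C4b against C1qb or C1qc the farthest (0.77).

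Among 12621 genes with a mean of at least 100, the profiles nearest to C4b were those of Ggta1 (0.39), Serpina3n (0.41) and Serpina3f (0.44). Serpina3n encodes a secreted protease inhibitor that reactive astrocytes make in quantity. Nearest to C3 were Ccdc3 (0.31), Vim (0.33), an intermediate filament gene of astrocytes and mesenchymal cells, and Tmem176b (0.35). Nearest to Serping1 were Dcn (0.30), which encodes the matrix proteoglycan decorin of fibroblasts, Perp (0.31) and Eya2 (0.31). Nearest to C1s1 were Fgl2 (0.42), Plce1 (0.43) and Emp1 (0.44). About its own mean C1s1 varied by 0.66, C3 by 0.49, Serping1 by 0.47 and C4b by 0.78. Beside this spread the nearest profiles of C1s1, C3 and Serping1 were all far, and those of C4b were not close either. C1qa was nearest to Hsd17b10 (0.12), Washc3 (0.13) and Psma5 (0.13), C1qb to 1110059G10Rik, Arpc1b and Ostf1 (0.16 each) and C1qc to Ostf1 (0.17), Arpc1b (0.17) and Rsl24d1 (0.18). C1qb and C1qc were nearer to each other than to any of these, whereas C1qa was nearer to Hsd17b10 than to either other C1q gene. About their own means C1qa varied by 0.29, C1qb by 0.31 and C1qc by 0.28.

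C1q was then set against 15 other microglial genes, among them Ctss and Csf1r, none of which was at 0 in any library. The mean log2 value of the 3 C1q genes minus that of the 15 genes was 0.38 ± 0.16 in wild type (SD, n = 5), 0.68 ± 0.11 in the Sim1 heterozygous group (n = 4), 0.46 ± 0.17 with the promoter sgRNA (n = 6) and 0.55 ± 0.15 with the enhancer sgRNA (n = 4). The groups overlapped: wild type F_4 stood at 0.66, the other 4 wild type libraries at 0.27 to 0.38, and the Sim1 heterozygous libraries at 0.59 to 0.80. The 15 genes differed mostly in the same directions as C1q, none of them past the test. For Sim1 heterozygous minus wild type 14 of 15 were higher, with a median of 0.22, and their summed counts ran from 18049 to 21221 against 14893 to 19613. With the promoter sgRNA 14 of 15 were lower than in the Sim1 heterozygous group (median -0.18, summed counts 15207 to 20634), and with the enhancer sgRNA all 15 (median -0.33, summed counts 15510 to 17152). limma called none of the 15 after adjustment in these comparisons, and 4, 1 and 8 had an unadjusted p under 0.05 in either direction, beside 3.75%, 4.08% and 6.67% of all genes. Their range with the enhancer sgRNA reached -0.72, beyond the C1q values. Without the 4 libraries that stood apart all 15 lay on the same side as C1q in each comparison, with medians of 0.22, -0.23 and -0.26, and C1q relative to them differed by 0.25, -0.17 and -0.11 in place of 0.30, -0.22 and -0.13.

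**Figure D4:**
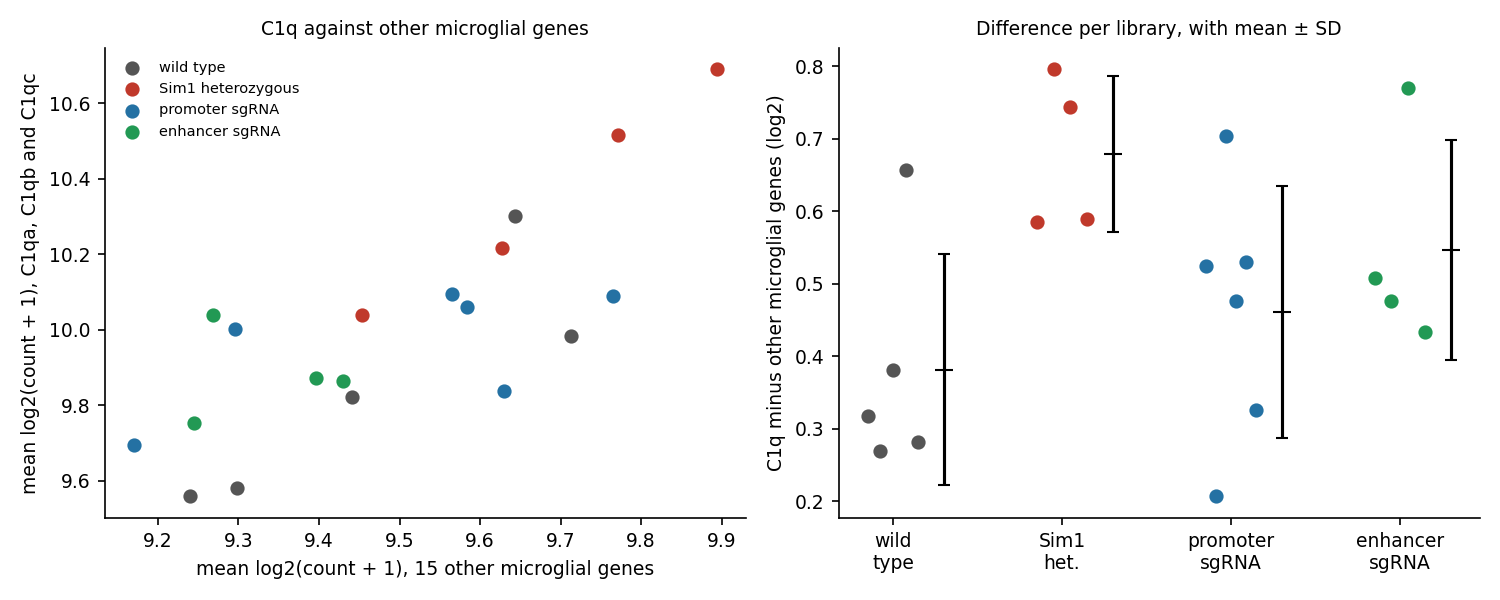
Left, mean log2(normalized count + 1) of C1qa, C1qb and C1qc against that of 15 other microglial genes, 1 point per library. Right, the difference between the 2 means by group with mean ± SD, which runs from 0.27 to 0.66 in wild type and from 0.59 to 0.80 in the Sim1 heterozygous group.

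Markers of other cells also differed between these groups, although limma called none of them after adjustment. For Sim1 heterozygous minus wild type, 7 of 7 border macrophage genes were higher (median 0.68, summed counts 200 to 582 against 225 to 439), 12 of 14 meningeal fibroblast genes (0.27, 5708 to 12282 against 6011 to 11137), 9 of 12 astrocyte genes (0.09, 149960 to 276497 against 126862 to 220463) and 18 of 20 interferon response genes (0.37, 7496 to 10686 against 5584 to 7616). The astrocyte gene Gfap, like C4b, was highest in the Sim1 heterozygous group and lowest with the enhancer sgRNA: it averaged 28425 ± 8764 in the Sim1 heterozygous group, 15157 ± 6665 in wild type, 13898 ± 2979 with the promoter sgRNA and 11478 ± 3437 with the enhancer sgRNA, and its Sim1 heterozygous libraries (21152 to 41090) lay above all libraries with an sgRNA and overlapped wild type. It was named after its values were seen. Neuronal genes went the other way, with 9 of 10 lower (median -0.11) and then 10 of 10 higher with either sgRNA, and 8 of 9 oligodendrocyte genes were lower (-0.14). Without the 4 libraries that stood apart the border macrophage median was 0.43, the meningeal 0.18, the astrocyte 0.34 with 11 of 12 higher, the interferon 0.54, the neuronal -0.19 and the liver 0.68 with 6 of 9 higher. Blood genes were higher in 6 of 7, with a median of 1.17 and summed counts of 5944 to 20009 against 2745 to 14184. Without the 4 libraries that stood apart the blood median was 1.54, again with 6 of 7 higher. Liver genes, whose tissue makes most circulating C3, C4 and C1 inhibitor, were higher in 9 of 9, with a median of 1.33. The liver signal came mainly from Sim1 heterozygous F_4, at 2525 summed counts against 42.5 to 193 in every other library, and Alb was at 0 in at least 1 library of 3 groups. All 10 choroid plexus genes were lower, and their sums were high in wild type F_3 and F_4 and promoter sgRNA F_5 and M_3, at 14789 to 81274 against at most 3464 elsewhere. Leukocyte genes were near 0, at 10 to 82 summed counts, with Cd3d, Cd3e, Ly6g and Ms4a1 at 0 in libraries of all 4 groups. Without F_4, the library with the liver signal, C3 was 0.93 ± 0.22 higher in the Sim1 heterozygous than in the wild type group and Serping1 0.91 ± 0.26. The part of liver, blood, border macrophages, meninges, astrocytes, neurons and interferon response in the complement values was not tested.

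The remaining genes of the pathway were taken from a list of 53, of which 48 were in the table and 42 passed the minimum mean of 1. None was called in any of the 6 comparisons between groups by limma, edgeR or DESeq2. For Sim1 heterozygous minus wild type 30 of the 42 were higher (median 0.19), beside 48.8% of all genes, and 4 had an unadjusted p under 0.05 in either direction, beside 3.75%. With the promoter sgRNA 34 of 42 were lower than in the Sim1 heterozygous group (median -0.27) and 7 had an unadjusted p under 0.05, and with the enhancer sgRNA 31 of 42 (median -0.26) and 3. Of all genes 49.9% and 49.7% were lower, and 4.08% and 6.67% had such a p. Without the 4 libraries that stood apart 32 of 42 were higher and then 29 and 33 lower, with 4, 3 and 3 at an unadjusted p under 0.05.

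Among the recognition molecules and initiating proteases, 9 of 9 were above wild type in the Sim1 heterozygous group and 9 of 9 were lower with the promoter sgRNA, and 7 of 9 in both cases without the 4 libraries that stood apart. The C1r-like protease gene C1rl averaged 29.6 ± 9.23 in the Sim1 heterozygous group and 14.7 ± 2.98 with the promoter sgRNA, a log2 difference of -0.91 ± 0.27 (limma, adjusted p = 0.934). Masp1, a protease of the lectin pathway, averaged 254 ± 38.7 in wild type and 260 ± 45.8 in the Sim1 heterozygous group, a difference of 0.02 ± 0.15. Mbl2, a circulating lectin, was 1.78 ± 0.75 higher (adjusted p = 0.868 in limma) at very low counts, 23.4 in Sim1 heterozygous F_4 and 1.5 to 6.3 in the other 3.

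Soluble regulators were above wild type in 5 of 5. Clu, which encodes clusterin, an inhibitor of the terminal complex that astrocytes make in quantity, averaged 38292 ± 10201 in the Sim1 heterozygous group, 30827 ± 4002 in wild type, 30524 ± 1874 with the promoter sgRNA and 28984 ± 4186 with the enhancer sgRNA. The first of these rests on F_3 at 53522, since the other 3 libraries held 31828 to 33998. Vtn, encoding vitronectin, differed by 0.31 ± 0.31 between Sim1 heterozygous and wild type. Cfi, encoding the protease factor I, stood at 37.7 in Sim1 heterozygous F_4 and at 2.5 to 6.2 in the other 3. Of the terminal components, C9 stood at 43.5 in the same library and at 0 to 2.5 in all others. F_4 thus carried the highest Mbl2, Cfi and C9 together with the liver signal, whose part in these values was not tested.

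C2, which partners C4, averaged 142 ± 78.6 in the Sim1 heterozygous group and 101 ± 38.4 in wild type, and Cfp, encoding properdin, 153 ± 99.6 and 127 ± 40.8. Membrane regulators showed no common direction, with 3 of 9 above wild type and a median of -0.04. Cd59b, which blocks the terminal complex, was 0.71 ± 0.29 higher (limma, adjusted p = 0.868), while Cd59a, at 1018 ± 105 against 994 ± 56.0, differed by 0.03 ± 0.14. Cd55, Cr1l, Susd4, Csmd1, Csmd2 and Csmd3 lay between -0.25 and 0.04. Among the receptors, the C5a receptor C5ar2 was 0.76 ± 0.32 higher in the Sim1 heterozygous group, at 16.7 to 24.6 counts, and -1.28 ± 0.31 with the promoter sgRNA, at 4.1 to 10.6 (limma, adjusted p = 0.868 and 0.819). The C3a receptor C3ar1 was lower with either sgRNA, by -0.57 ± 0.25 and -0.64 ± 0.27 (adjusted p = 0.934 and 0.678 in limma). Itgam and Itgb2, the chains of the phagocytic receptor CR3, differed by 0.01 ± 0.18 and 0.13 ± 0.19 between Sim1 heterozygous and wild type, and Cd93 and C1qbp by -0.11 ± 0.24 and 0.15 ± 0.12.

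Age and sex were not used to choose the genes and could be tested. C4b had a positive slope with age that passed the test: in a model with group and sex its slope was 0.18 ± 0.04 log2 units per month (SE, n = 19 libraries), with a limma adjusted p of 0.0175. Slopes passed the test in 2.81% of all genes, 1.32% on the higher and 1.5% on the lower side. In wild type C4b stood at 666 at 3 months, 711 at 4, 1206 and 1365 at 7 and 1395 at 9 months. In the Sim1 heterozygous group it stood at 1244 and 3003 at 4 months, 3278 at 7 and 4099 at 9. With the promoter sgRNA it stood at 778 and 911 at 3 months, 908 at 4, 1420 at 7, 942 at 8 and 1885 at 9, and with the enhancer sgRNA at 522 at 3 months, 997 and 1274 at 6 and 782 at 7. The oldest animal had the highest value in 3 of the 4 groups and the enhancer sgRNA group was the exception. In those 3 groups it was the male M_1, aged 9 months, the only male of the wild type and Sim1 heterozygous groups. Sex and replicate number thus went with age in these cases.

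Age went largely with the replicate number (F_3 animals were 4 months old and M_3 animals 3), and same-number libraries tended to correlate. With the number as a factor in place of sex, the C4b slope was -0.06 ± 0.12 (limma, adjusted p = 0.934), resting on the few animals of 1 number that differed in age. That fit called 1 gene in all. With the number as a random effect the C4b slope was 0.18 ± 0.04 (limma, adjusted p = 0.0378), among 226 genes called. Age and what else the numbers share cannot be told apart here. The call also depended on single libraries. It was lost without enhancer sgRNA M_3 (0.16 per month, adjusted p = 0.0691) and without promoter sgRNA M_3 (0.19, adjusted p = 0.0690), both 3 months old, and kept without any 1 of the other 17. It was also lost without the 4 libraries that stood apart (0.17, adjusted p = 0.231). edgeR called C4b as well, among 604 genes, and DESeq2 called C4b and C1qc among 1255 genes. The other 6 genes did not pass in limma, although 4 of the 7 had an unadjusted p under 0.05, as did 17.7% of all genes. C1qb and C1qc had negative slopes, -0.07 ± 0.02 each (adjusted p = 0.111 and 0.107), C3 had 0.07 ± 0.03 (adjusted p = 0.233), and C1qa, C1s1 and Serping1 had adjusted p of 0.412 to 0.787.

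Other genes moved with age beside these. Of the 42 other complement genes 0 passed in limma and edgeR and 10 had an unadjusted p under 0.05, beside 17.7% of all genes. DESeq2 called Csmd2 and Cd59a among its 1255 genes, and their limma slopes were 0.09 ± 0.03 and 0.06 ± 0.02. C4a had a slope of 0.19 ± 0.07 (limma, adjusted p = 0.180), close in size to that of C4b. Of the interferon response genes 19 of 20 had positive slopes and 1 passed, and of the astrocyte genes 11 of 12 and 0. Slopes were negative in 9 of 10 choroid plexus genes (5 passed) and 13 of 14 meningeal fibroblast genes (0 passed). They were also negative in 9 of 9 oligodendrocyte genes (2 passed), 7 of 7 border macrophage genes and 12 of 15 microglial genes (0 passed in both). Of all genes 51.2% had positive slopes and 2.81% passed. Their part in the age slopes of C4b and C1q was not tested.

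**Figure D5:**
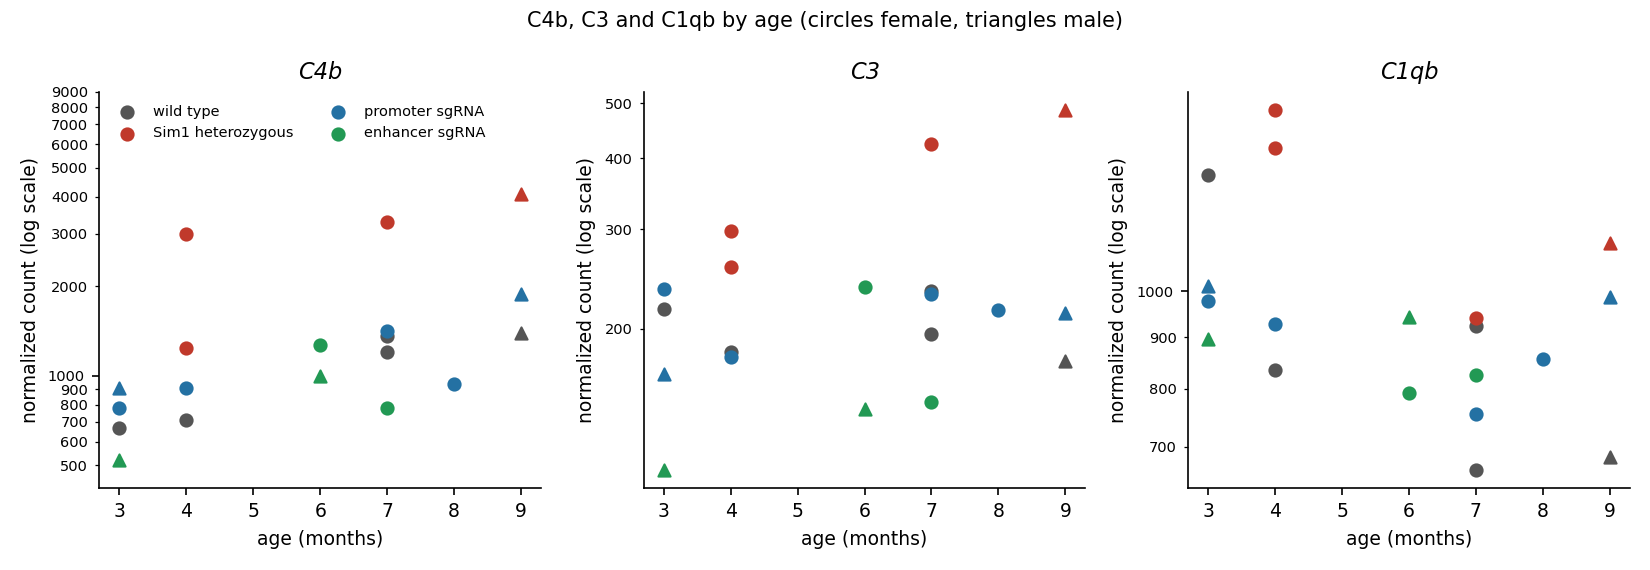
Normalized counts (log scale) of C4b, C3 and C1qb against age in months, 1 point per library, coloured by group, with circles for females and triangles for males. C4b runs from 522 at 3 months to 4099 at 9 months with the Sim1 heterozygous group on top, while the highest C1qb values are those of animals of 3 and 4 months.

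No difference between the sexes was detectable in the 7 genes. In the model with group, 0 of the 7 genes passed between 6 males and 13 females in limma, edgeR or DESeq2, while 0.039% of all genes passed in limma. None of the 7 had an unadjusted p under 0.05, which 3.14% of all genes had. Male minus female ranged from -0.13 ± 0.16 for C3 to 0.44 ± 0.24 for C1s1 (log2, SE), the latter with an adjusted p of 0.999 in limma.

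Cas9 binding was read from the authors' 6 peak lists, which were independent of the choice of genes. For each sgRNA, the S. pyogenes Cas9 antibody had lists from hypothalamus and from the Neuro2A neuroblastoma line. The S. aureus Cas9 antibody had lists from hypothalamus only. Each list held 92 to 205 peaks, and each had 1 peak within 100 kb of Sim1, directly beside the gene. No list had a peak within 100 kb of any of the 7 complement genes. Within 1 Mb the 4 hypothalamus lists and the Neuro2A promoter list held none. The Neuro2A enhancer list held 1 peak 0.69 to 0.71 Mb from the C1q genes (chr4:136189618-136190227) and 1 peak 0.628 Mb from C3 (chr17:57855965-57856265). The sources do not say how ChIP replicates entered a list or what it was called against.

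Sim1 overlapped between the groups and so did not check the labels library by library. It stood at 305 to 547 normalized counts in wild type and at 121 to 330 in the Sim1 heterozygous group. It ranged from 155 to 431 with the promoter sgRNA and from 272 to 353 with the enhancer sgRNA. Library totals ran from 14.1 to 84.8 M reads. Without the 4 libraries that stood apart the Sim1 heterozygous minus wild type differences were 1.79 ± 0.32 for C4b, 1.09 ± 0.23 for Serping1, 0.97 ± 0.25 for C3, 0.78 ± 0.36 for C1s1 and 0.46 to 0.57 for the C1q genes.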

How the data were processed

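Hypothalamus RNA-seq of 19 libraries was used. The labels' protocols name the RNeasy kit for RNA and the Nugen Ovation and Nextera XT kits for libraries. The submitters' processing notes name, without roles, DESeq2 1.16.1, STAR 2.5.2b, CASAVA 1.8 and MACS2 2.1.1.20160309, and give the build as mm9. Of 16615 genes matched to RefSeq by Entrez ID 99.9% overlapped in GRCm38, so coordinates are GRCm38.

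Per the file headers, the authors deposited normalized counts, a signal scaled per library, stabilized log2 values, and log2 and linear fold changes with p-values for 3 comparisons whose model is not stated. The deposited peak lists hold pileup signal, a fold enrichment ratio and -log10 p, and their q column was not used. The percent GC that the authors deposited was not used. Whole reads, recovered for at least 99.98% of genes per library (tolerance 0.0505 normalized counts), served edgeR 4.0.16 and DESeq2 1.42.0 as alternatives.

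Differences were fitted on log2(normalized count + 1) with limma 3.58.1 (R 4.3.3, prior variance with a trend), over 20505 genes with a mean of at least 1, 4 groups and sex. Folds of low genes are understated on this scale. Benjamini-Hochberg adjustment at 0.05 ran over all genes, for 6 comparisons, sex and age (age in months added). The fit was tested on simulated data only for Sim1 heterozygous against wild type. The age slope was not simulated, nor were changes in genes as low as C1s1. Each library was treated as 1 animal, and where that does not hold, p-values measure technical spread. No label gives a sequencing batch. The members and all lists were chosen with earlier results of these data known. Named genes are the 7 members, Sim1, other complement genes with a mean of at least 100 or among the 3 of smallest p in a role, the 3 nearest profiles and up to 3 markers a list. C9 and single markers at 0 were named after their values were seen. Levels are counts per gene, not per length, and are not compared between genes. Whether libraries kept strand is not stated. Input ChIP and ChIP without sgRNA were not analysed here. Some genes that the naming rule covers are not reported here.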

Additional observations from a re-analysis of the deposited data

Results flagged for a closer look

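In 44 groups of 4 to 6 values, 5 held a library far from the others of its group (Dixon's test), and chance alone gives about 1 in 20 groups. C1s1 in Sim1 heterozygous M_1 was 63.2 normalized counts, against 36.0 to 39.6 in the other 3 libraries of that group. Wild type F_4 stood apart in 3 related measures. There C1q relative to the other microglial genes was 0.66 (log2) against 0.27 to 0.38, C1qb minus C1qa was -0.31 against a group median of -0.74, and C1qc minus C1qa was -0.77 against a median of -1.02. Wild type F_4 was 3 months old and had the highest choroid plexus signal of all libraries, at 81274 summed counts. C1qc minus C1qa was -1.30 in Sim1 heterozygous F_3 against a group median of -0.96, and that animal was the B6 female of its group.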

How the results depend on the processing

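The 21 member differences between the Sim1 heterozygous group and the other 3 groups kept their sign in all 693 values under the alternatives run. The genes were chosen on these groups and the alternatives reuse the same libraries, so this count is a description and no support for the differences. With the authors' stabilized log2 values the differences were smaller by more than the replicate SD in 9 cases. Sim1 heterozygous minus wild type fell to 0.17 for C1s1 and 0.49 for C3. Promoter sgRNA minus Sim1 heterozygous was then -0.28 for C1s1, -0.40 for C3 and -0.36 for Serping1, and enhancer sgRNA minus Sim1 heterozygous was -0.16 for C1s1, -0.83 for C4b, -0.47 for C3 and -0.37 for Serping1. The cause was not tested.

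Leaving out 1 library at a time gave 1.21 to 1.72 for C4b, 0.61 to 1.00 for C3, 0.70 to 1.10 for Serping1, 0.53 to 0.77 for C1s1, 0.39 to 0.67 for C1qa, 0.40 to 0.66 for C1qb and 0.40 to 0.61 for C1qc in Sim1 heterozygous minus wild type, -1.66 to -1.14 for C4b with the promoter sgRNA and -2.05 to -1.45 with the enhancer sgRNA.

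C4b was called between groups only under some alternatives: with stabilized values and DESeq2 (Sim1 heterozygous against wild type), and with age added and DESeq2 (enhancer sgRNA). No label says what the replicate numbers (F_1 to M_3) share, and 5 of 20 same-number pairs did not correlate above 0.1, so they were not taken as pairs. The median r was still 0.34 against -0.06 for other pairs, and 12 of 18 libraries were closest to their own number, a hint from the data. With the replicate block C4b differed by 1.39 and -1.82 for Sim1 heterozygous minus wild type and enhancer sgRNA minus Sim1 heterozygous and lay past limma's threshold, given as a description since C4b was chosen on these groups. Other complement genes stayed at 0 calls in all 6 comparisons under every alternative run, the replicate block included.

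The C4b age slope kept its call under 27 of 32 alternatives (adjusted p 0.000249 to 0.0438 in limma, edgeR or DESeq2). Alternatives chosen after seeing the data included both fits with the replicate number and the omission of the 4 libraries that stood apart. Of these only the fit with the number as a random effect kept the call. The slope was 0.026 with stabilized values and 0.17 without the 4 libraries that stood apart, both with 0 members called. It ranged from 0.16 to 0.21 over single libraries left out, with 0 to 1 members called. DESeq2 called 2 members among 1255 genes. With the replicate block the slopes of C4b (-0.065), C3 (-0.027) and C1s1 (-0.19) changed sign. That fit called 0 members and 1 gene in all. Whether the authors corrected the stabilized values for age or sex is not stated, and with them the age slopes of C1qa (0.012), C1qb (0.0057), C1qc (0.0028), C1s1 (-0.0038) and Serping1 (0.0052) changed sign, as did male minus female of C1qa (5.27e-06), C1qb (0.0092), C3 (0.027) and Serping1 (-0.00029). Male minus female also changed sign without both B6 animals (C1qa 0.0086, C1qb 0.033) and with age added (C1qa 0.0030, C1qb 0.085). Over single libraries left out, male minus female ran from -0.11 to 0.019 for C1qa, -0.038 to 0.10 for C1qb, -0.017 to 0.12 for C1qc and -0.092 to 0.26 for Serping1, and the Serping1 age slope from -0.049 to 0.00021. Peaks near the genes numbered 4 pairs of peak and gene within 1 Mb and 0 within 100 kb. C1s1, at 7.1 to 63.2 counts, is the gene that depth limits most.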
